A study of Homo sapiens with 2 samples.

Results

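The genes of Argonaute and the small RNA machinery were described here in U87 cells, an established human glioblastoma line in which HOXD9 was targeted with an siRNA. They are DROSHA, DGCR8, XPO5, DICER1, TARBP2, AGO1, AGO2, AGO3, TNRC6A and TNRC6B, 10 genes in all. The members were found as all probe sets (groups of short probes that read 1 transcript together) that the array annotation assigns to 1 of these genes and to no other gene. This gave 34 of 54613 probe sets and 9 of 19775 genes that have a probe set of their own. DGCR8 had no probe set of its own. All 4 that name it name the microRNA gene MIR1306 as well, so DGCR8 has no value in the comparisons. AGO2 had 1 probe set of its own, and 3 more shared with the gene CASC7 in the annotation were left out in the same way.

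Small interfering RNAs work through the same proteins that handle microRNAs, the short RNAs that lower the output of matching messenger RNAs. In the nucleus the enzyme DROSHA and its partner DGCR8 cut a hairpin out of the primary transcript, XPO5 carries the hairpin to the cytoplasm, and DICER1 with its partner TARBP2 trims it to a duplex. An Argonaute protein (AGO1, AGO2 or AGO3) keeps one strand as a guide, and the GW182 proteins TNRC6A and TNRC6B link Argonaute to the enzymes that shorten, decap and degrade the target. A transfected siRNA duplex enters this pathway late, at the loading of Argonaute, and needs neither DROSHA nor XPO5.

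MIR1306 lies inside DGCR8 on the same strand, within the gene of a protein that itself takes part in cutting hairpins. Its mature sequences in RefSeq (build GRCh38.p14) are shown because the joint annotation with MIR1306 left DGCR8 without a value, with the seed, bases 2 to 8, in capitals. They lie on the plus strand at chr22:20086072-20086093 (5p) and chr22:20086112-20086129 (3p).
hsa-miR-1306-5p: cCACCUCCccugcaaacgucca
hsa-miR-1306-3p: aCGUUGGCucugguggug

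U87 cells were transfected with a control siRNA or with HOXD9 siRNA-2, each at 50 nM with a lipid reagent, and RNA taken on Day 2 was read on 1 Affymetrix U133 Plus 2.0 array per condition. Values are the authors' linear signals. Both cultures received an siRNA and no untransfected array was analysed here, so a response of these genes to transfection itself cannot be seen. With 1 array each there is no replicate, SD or test, and any single ratio compares 2 arrays. HOXD9, the targeted gene, read 19.7 in the control and 5.58 after HOXD9 siRNA-2 on its brighter probe set. Its other probe set went the other way, with 9.33 and 11.4 (log2 ratio 0.28). A signal of 18.4, the highest among 27 Bacillus subtilis control probe sets on either array, was taken as background for both arrays. On the control array alone the highest was 11.4. Against 18.4, HOXD9 was at least 1.07-fold lower on its brighter probe set, and the other lay within background on both arrays. Bringing both arrays to one median (centering) multiplies the HOXD9 siRNA-2 array, and with it this background, by 1.23. The bound was then 0.870, under 1, and no lower level of HOXD9 could be bounded. The 3 log2 ratios of GAPDH, a glycolytic enzyme often used as a reference, lay between -0.03 and -0.02 as deposited, which centering turns to values above 0. Of 8 glioma and glial markers 4 lay above background, with VIM and CD44 far above it, while GFAP, S100B, OLIG2 and FABP7 did not. SOX2 was above it with control siRNA alone, at 19.2. Of the markers of other cell types, none of 2 leukocyte, 1 of 2 endothelial (PECAM1, 43.4 and 40.3) and 1 of 2 epithelial genes (EPCAM, 28.2 and 23.8) were above background. For PECAM1 this held on 1 of its 5 probe sets, and the others were within background on both arrays. Of 3 genes known to be deleted in U87, CDKN2A (26.9 and 19.5) and MTAP (22.5 and 8.81) were also above it on at least 1 array, so a signal slightly over background need not be transcript.

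All ratios are given on the log2 scale, HOXD9 siRNA-2 divided by control, and "lower" means less signal with HOXD9 siRNA-2. The control array had a median of 22.5 over all probe sets and the other array 18.3. Bringing both arrays to one median (centering) therefore adds 0.30 to every log2 ratio, and centered values are given where they bear on a direction or a call. A probe set was kept when its mean signal reached 19.8, the median of all. Of the 34 probe sets 30 were kept. The other 4, one each of AGO1 and TARBP2 and both dimmest of DICER1, lay at or near background. A change was called past 2-fold, the threshold of the study.

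None of the 9 genes was past 2-fold on its brightest probe set, against 4.95% of 11624 genes lower by that much. In all, 7 values were below 0 and the other 2, AGO1 and AGO2, above it. Since 83.2% of all genes were below 0 in the deposited signals, nothing is read from that count. The median of the 9 genes was -0.35 and that of all genes -0.25, or -0.05 and 0.05 after centering. The genes were not alike. The GW182 genes TNRC6A (-0.76) and TNRC6B (-0.65) and the export receptor XPO5 (-0.66) had the lowest values, also after centering (-0.46, -0.35 and -0.36). DROSHA, TARBP2, AGO3 and DICER1 lay between -0.38 and -0.13, and AGO1 and AGO2 at 0.14 and 0.18.

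**Figure D1:**
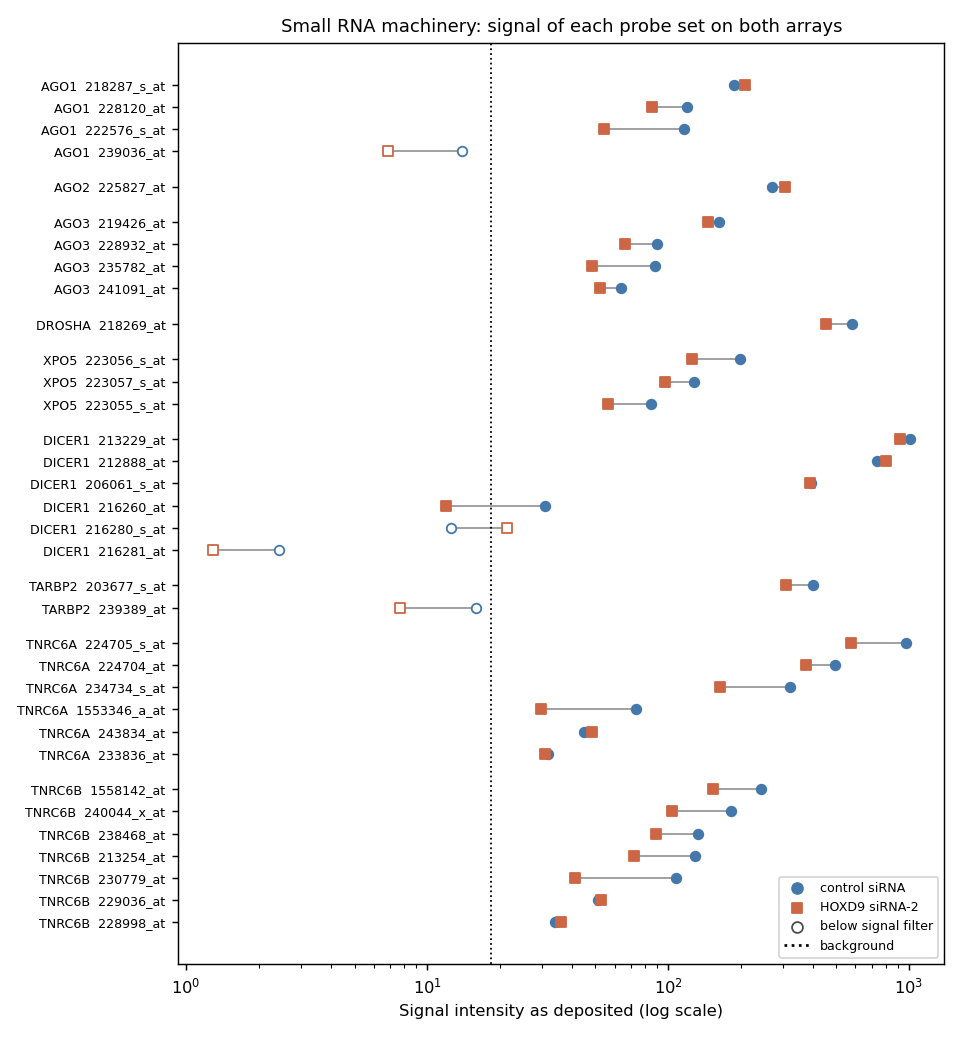
Each row is 1 probe set of a small RNA machinery gene, with its deposited signal (x axis, log scale) on the control siRNA array (blue circle) and the HOXD9 siRNA-2 array (orange square), open where the probe set was below the signal filter. The dotted line is the background of 18.4. Most orange squares lie to the left of the blue circles, while the brightest AGO1 and the AGO2 probe set go the other way.

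At the level of probe sets, 4 of the 30 kept ones (13.3%) were lower by more than 2-fold, against 6.69% of 27307 probe sets over the whole array. None was higher by that much, against 0.615%. The 4 were 222576_s_at of AGO1, 216260_at of DICER1, 1553346_a_at of TNRC6A and 230779_at of TNRC6B. With signals at or under background taken at background, 3 of the 30 were lower by more than 2-fold, against 5.24% of all, since the DICER1 probe set became a bound. After centering 3 of the 30 had a measured ratio past 2-fold, against 2.94%, the AGO1 probe set no longer among them, and 2 of the 30 were past it against background, where 1.66% of all were. With counts this small the shares do not set these genes apart from the array. No gene had more than 1 such probe set, so the calls turned on which probe set of a gene was read.

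DROSHA, the nuclear ribonuclease that frees the hairpin, was read by 1 probe set, 218269_at. Its signal went from 580 in the control to 454 after HOXD9 siRNA-2. The log2 ratio of -0.35 was close to the array's median of -0.28 over kept probe sets, and was -0.05 after centering.

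XPO5, the receptor that takes hairpins out of the nucleus, was the most even of the genes with several probe sets. Its 3 probe sets read 200 and 126, 129 and 97.5, and 85.0 and 56.6, the control first in each pair. The log2 ratios were -0.66, -0.40 and -0.59, a range of 0.26. All 3 were below the median of all kept probe sets and all 3 stayed below 0 after centering, at -0.36, -0.10 and -0.29. None reached 2-fold. All 3 end in _s_at, which marks probes shared by several transcripts.

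DICER1, the cytoplasmic ribonuclease that makes the duplex, had 3 bright probe sets whose deposited signals differed little between the arrays. 213229_at read 1007 and 921 (log2 ratio -0.13), 212888_at read 736 and 804 (0.13), and 206061_s_at read 394 and 389 (-0.02). All 3 lay above the array's median of -0.28, and after centering all were above 0, from 0.17 to 0.43. The other kept probe set, 216260_at, was dim, with 30.9 and 12.0. The second signal was within background, so that DICER1 was at least 1.68-fold lower on it, or 1.36-fold after centering. Its measured log2 ratio of -1.36 thus rests on a signal not above background. Of the 2 probe sets below the filter, 216280_s_at read 12.6 and 21.5, at least 1.17-fold higher, and 216281_at was within background on both arrays.

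TARBP2 encodes the double-stranded RNA binding partner of DICER1. 203677_s_at went from 401 to 308, a log2 ratio of -0.38 (-0.08 centered), and a second probe set was within background on both arrays. PRKRA, the other such partner of DICER1, had a similar value on its brightest probe set, with 753 and 616 (-0.29, or 0.01 centered). Its dimmer probe set read 49.8 and 24.8, a log2 ratio of -1.004 (-0.70 centered), just past 2-fold.

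AGO2 is the Argonaute that can itself cut a fully matched target, the step on which siRNA silencing rests. Its only own probe set, 225827_at, read 269 in the control and 305 after HOXD9 siRNA-2. This is a log2 ratio of 0.18, or 0.48 after centering, so AGO2 read slightly higher with HOXD9 siRNA-2 under both scales. No other probe set of its own was there to check it.

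AGO1 also binds guide RNAs, but is a poor slicer, and represses mainly through its GW182 partner. Its brightest probe set, 218287_s_at, read 189 in the control and 208 after HOXD9 siRNA-2, a log2 ratio of 0.14. The next, 228120_at, went from 120 to 85.5 (-0.49). The last, 222576_s_at, went from 117 to 54.5 (-1.10), 46.7% of the control. The 3 probe sets thus read 1 gene as slightly higher, lower and lower by more than 2-fold, and no single direction can be given for AGO1. Centering keeps this split, with log2 ratios of 0.44, -0.19 and -0.80. The remaining probe set was within background on both arrays.

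AGO3, another Argonaute, sits next to AGO1 on chromosome 1, and AGO4 flanks AGO1 on the other side, with no annotated gene between any of them. Its 4 kept probe sets were all lower as deposited. 219426_at read 163 and 147 (log2 ratio -0.16), and 228932_at read 90.4 and 66.2 (-0.45). 235782_at read 88.7 and 48.6 (-0.87), and 241091_at 64.0 and 52.3 (-0.29). The order of signal was not the order of the ratios. After centering, the brightest (0.14) and the dimmest (0.01) were no longer below 0, and the other two stayed there at -0.15 and -0.57. AGO4, the remaining Argonaute, read 106 and 74.8 on its brightest probe set, a log2 ratio of -0.50 (-0.20 centered). On its other kept probe set the control siRNA signal was within background, and AGO4 was at least 1.56-fold higher there. AGO4, AGO1 and AGO3 each had probe sets that disagreed by size or by sign. For AGO3 this was common, since its range of 0.71 was reached by 40.8% of genes with 4 kept probe sets.

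TNRC6A, a GW182 scaffold that recruits deadenylases to Argonaute, was lower on its 4 brightest probe sets. 224705_s_at went from 976 to 577, a log2 ratio of -0.76. 224704_at went from 492 to 375 (-0.39) and 234734_s_at from 319 to 164 (-0.96). 1553346_a_at went from 73.3 to 29.7 (-1.30), 40.5% of the control and the lowest of the 6. The 2 dimmest, 243834_at with 45.0 and 48.4 (0.10) and 233836_at with 31.8 and 30.9 (-0.04), barely differed between the arrays. After centering the first 4 were still below 0, from -1.005 to -0.09, and the 2 dimmest above it, at 0.40 and 0.26.

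TNRC6B, the paralog of TNRC6A, was also split by the order of signal within the gene, though not at the same signal level. Its 5 brighter probe sets were all lower. 1558142_at went from 242 to 154 (log2 ratio -0.65), 240044_x_at from 182 to 104 (-0.81) and 238468_at from 134 to 88.8 (-0.59). 213254_at went from 130 to 72.2 (-0.85) and 230779_at from 108 to 41.2 (-1.39), 38.1% of the control. No other TNRC6B probe set was past 2-fold. The 2 dimmest, 229036_at with 51.0 and 52.5 (0.04) and 228998_at with 33.8 and 36.0 (0.09), did not follow. Centering left the 5 below 0, from -1.09 to -0.29, and the other 2 at 0.34 and 0.39. The position of each probe set on the transcript was not given in the sources used here, and the part of transcript forms or of other RNAs in this split was not tested.

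TNRC6C, the other GW182 gene, was dim. Its brightest probe set read 42.0 and 49.0 (log2 ratio 0.22) and the next 22.0 and 21.9 (-0.01, or 0.29 centered). On its last kept probe set TNRC6C was at least 1.63-fold lower, or 1.33-fold after centering. On its brightest probe set TNRC6C was thus higher, where TNRC6A and TNRC6B were lower on theirs, which were brighter. The 2 dimmest probe sets of TNRC6A (0.10 and -0.04) and of TNRC6B (0.04 and 0.09), nearer in signal to those of TNRC6C, barely differed between the arrays. However, 1553346_a_at of TNRC6A, with a mean signal of 51.5 beside 51.8 for 229036_at of TNRC6B, was at -1.30.

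**Figure D2:**
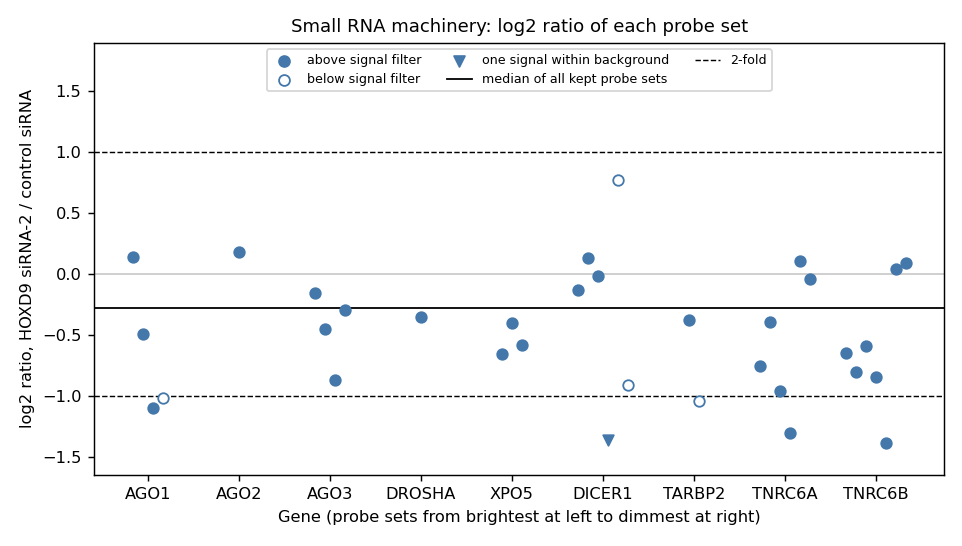
Points show log2 ratios (y axis, HOXD9 siRNA-2 divided by control) of single probe sets, by gene (x axis), from the brightest at the left to the dimmest at the right. Open points were below the signal filter, the triangle marks a kept probe set with 1 signal within background, dashed lines are 2-fold and the solid line is the median of all kept probe sets, -0.28. The DICER1 points from bright probe sets sit above that line and those of XPO5 below it, while AGO1, TNRC6A and TNRC6B spread from above 0 to below -1.

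How far probe sets of 1 gene differ is the one measure of disagreement these data hold within a gene, and it is not a replicate error. Over 6081 genes with 2 or more kept probe sets the pooled SD of log2 ratios within genes was 0.41, and over the 6 such genes here it was 0.52. The SD was 0.60 for the dimmest tercile of kept probe sets by mean signal, 0.35 for the middle and 0.25 for the brightest tercile. The SD within a gene was 0.62 for AGO1, 0.31 for AGO3, 0.13 for XPO5, 0.69 for DICER1, 0.55 for TNRC6A and 0.52 for TNRC6B. In 4 of the 6 genes the range exceeded 1, that is 2-fold, and in 13.3% of the 6081. Since a range grows with the number of probe sets, each gene was set beside genes with equally many. The AGO1 range of 1.24 was reached by 8.75% of 1635 genes with 3 kept probe sets, and the DICER1 range of 1.49 by 5.79% of 726 genes with 4. The TNRC6A range of 1.41 was reached by 18.03% of 122 genes with 6, and the TNRC6B range of 1.48 by 19.3% of 57 genes with 7. The AGO3 range of 0.71 was reached by 40.8% and that of XPO5, 0.26, by 73.9%. The DICER1 range came from its dim probe set, whose signal after HOXD9 siRNA-2 was within background. With signals at or under background taken at background, the DICER1 range was 0.87, reached by 23.8% of the 726 genes, and its SD 0.38. The range then exceeded 1 in 3 of the 6 genes, AGO1, TNRC6A and TNRC6B, and in 10.7% of the 6081. The pooled SD was then 0.47 over the 6 genes and 0.35 over all. The ranges of the other 5 genes hold no signal within background. In AGO1 the 3 probe sets all belonged to the middle tercile of signal.

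**Figure D3:**
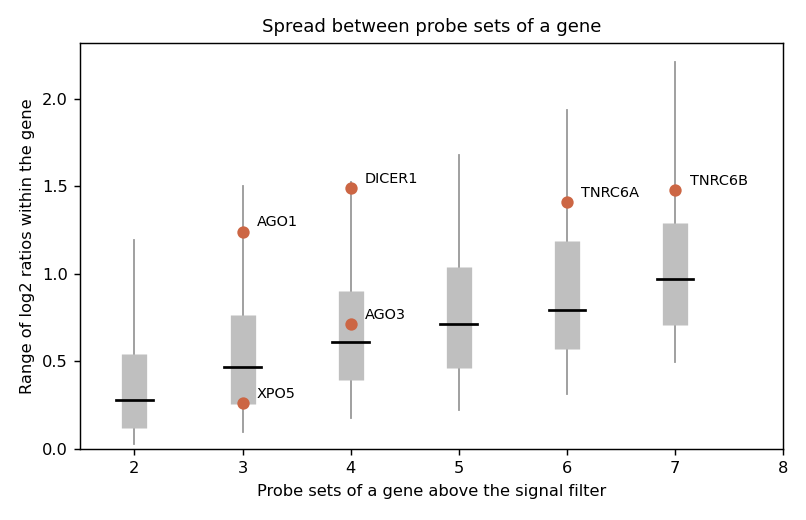
The range of log2 ratios within a gene (y axis) is plotted against its number of probe sets above the filter (x axis). Boxes hold the middle 50% of genes with that number, bars mark their median and thin lines run from the 5th to the 95th percentile. Orange points are the small RNA machinery genes, with XPO5 near the bottom of its box, and AGO1, DICER1, TNRC6A and TNRC6B above theirs, the DICER1 point resting on a signal within background.

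The probe sets were also set beside others of like signal. In the brightest tercile, where the middle 90% of probe sets had log2 ratios from -0.75 to 0.10, 4 of 9 small RNA machinery probe sets lay outside that span. Those of AGO2 (0.18) and DICER1 (212888_at, 0.13) were above it and those of TNRC6A (224705_s_at, -0.76, and 234734_s_at, -0.96) below it. In the middle tercile, with a span from -1.002 to 0.21, 2 of 14 lay outside, the probe sets of AGO1 and TNRC6B past 2-fold. In the dimmest tercile none of 7 did, although the span there, from -1.39 to 0.61, was wide. Centering moves the spans and the values alike, so the same probe sets lie outside them.

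The wider pathway was read through lists of related genes, described by counts and not tested. Of 110 genes 87 had a kept probe set, and on the brightest one 4 were lower past 2-fold and 0 higher, against 4.95% lower over all genes. Their median log2 ratio was -0.27 and that of all genes -0.25, or 0.03 and 0.05 after centering.

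Genes that act beside DROSHA numbered 10, with a median of -0.27 (0.03 centered) and none past 2-fold on the brightest probe set. ZC3H7A, reported to help in microRNA processing, had the lowest value (436 and 239, -0.86). The Microprocessor cofactors SRRT (-0.52) and DDX5 (-0.51) followed. All were still below 0 after centering, at -0.56, -0.22 and -0.21. KHSRP gave -0.19, 0.14 and -0.49 on its brighter probe sets. On its dimmest one, with 45.3 and 3.35, KHSRP was at least 2.46-fold lower, or 2.001-fold after centering.

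Among 15 kept genes of Argonaute loading and association none was past 2-fold and the median was -0.21 (0.09 centered). GEMIN4, a protein of the SMN complex found with Argonaute, read 243 and 134 (-0.86) on its brightest probe set and -0.36 on the other. The helicase MOV10 had -0.57 and 0.28 and FXR2, a relative of the fragile X protein, -0.55 and -0.36. After centering the brightest probe sets of the 3 genes stood at -0.56, -0.27 and -0.25.

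Downstream of GW182, the 17 kept deadenylation genes had a median of -0.24 (0.06 centered) and none was past 2-fold on the brightest probe set. CNOT3, a subunit of the CCR4-NOT deadenylase that GW182 proteins recruit, had the lowest value, with 377 and 206 on the brightest probe set (-0.87). Its other kept probe sets gave -0.63 and 0.08. TOB1, which binds the deadenylase, gave -0.50 and 0.13, and PAN2, the nuclease of the other deadenylase complex, -0.48. Centered, the brightest values were -0.57, -0.20 and -0.18.

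Of 13 decapping and decay genes 1 was lower by more than 2-fold, and the median was -0.18 (0.12 centered). This was DCP1A, a cofactor of the decapping enzyme and a component of P-bodies. It went from 242 to 118 (-1.04) on 1 probe set and from 145 to 58.9 (-1.30) on the other, with both past 2-fold. After centering they stood at -0.74 and -1.003, the first short of 2-fold and the second just past it. Both of its probe sets thus read lower.

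Of 6 kept genes of let-7 control and small RNA tailing none was past 2-fold on the brightest probe set. ADAR, the editing enzyme of double-stranded RNA, read 902 and 511 (-0.82, or -0.52 centered). ADARB1, another editor, was at least 1.501-fold higher, its control siRNA signal lying within background, and its other kept probe set read 19.9 and 21.5 (0.11). Both lie near the background level, in the range where the deleted CDKN2A read 26.9 and 19.5. TUT7, a uridyltransferase, had -0.52. DIS3L2 read 54.0 and 63.3 (0.23) on its brightest probe set. Its next read 68.1 and 30.8 (-1.14, or -0.84 centered), past 2-fold as deposited only. On its other kept probe sets DIS3L2 was at least 1.80-fold and 1.42-fold lower, or 1.46-fold and 1.16-fold after centering. The germline PIWI pathway, a separate small RNA system, had 1 of 10 genes kept, TDRKH at -0.04 (0.26 centered).

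Sensors of double-stranded RNA are relevant because an siRNA duplex can be bound by some of them. None of 8 kept sensors was past 2-fold and all were below 0 on the brightest probe set as deposited, as were 83.2% of all genes. After centering 6 of the 8 were below 0, against 43.7% of all genes, and RIGI (0.15) and IFIH1 (0.04), helicases that sense viral RNA, above it. The 3 probe sets of RIGI gave -0.15, -0.0046 and 0.26 as deposited, and all were above 0 after centering. IFIH1 was dim, with 31.1 and 25.9 on its brightest probe set. On its other kept one, with 33.8 and 17.4, IFIH1 was at least 1.84-fold lower, or 1.49-fold after centering. The median of the sensors was -0.48, or -0.18 after centering. OAS2 was at least 1.41-fold lower (1.15-fold centered). EIF2AK2, the kinase PKR, read 513 and 323 (-0.67) with -0.14 and -0.63 on its other probe sets, and OAS1 had -0.64 and 0.18. The EIF2AK2 probe set at -0.14 and the OAS1 one at 0.18 were above 0 after centering. Since both cultures received an siRNA, these values compare one duplex with another and not siRNA with none.

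**Figure D4:**
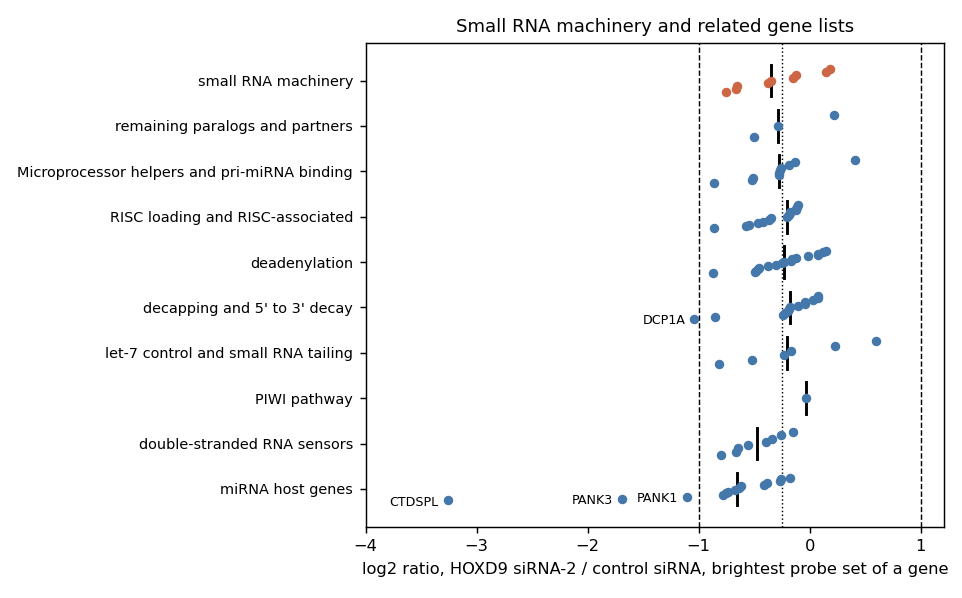
Each point is the log2 ratio (x axis) of 1 gene on its brightest kept probe set, in the small RNA machinery (orange) and in 9 lists of related genes (blue). Black bars are list medians, the dotted line is the median of all genes, -0.25, and dashed lines are 2-fold. DCP1A, PANK1, PANK3 and CTDSPL are labelled as the points below -1, and the bar of the microRNA host genes stands farthest to the left, at -0.66.

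The substrates of the machinery were approached through a list of genes taken as hosts of microRNAs within their transcripts. The arrays read the host transcript and not the mature microRNA. All 14 kept genes of this list were below 0 as deposited, with a median of -0.66 (-0.36 centered), and 3 were lower by more than 2-fold. HTT is counted among the 14, although the annotation used here gave no microRNA within it. Its brightest probe set was at -0.42 (-0.12 centered) and its other at 0.26. Of all genes 83.2% were below 0 and 4.95% lower by that much. After centering 11 of the 14 were below 0 and 2 lower by more than 2-fold, against 43.7% and 2.31% of all genes. CTDSP1 (0.12), VMP1 (0.04) and SMC4 (0.03) were then above 0. CTDSPL, a phosphatase gene that hosts miR-26a-1, was the lowest. It went from 243 to 25.3 (-3.26), from 164 to 42.1 (-1.97) and from 75.7 to 30.2 (-1.32) on its 3 kept probe sets, all of them past 2-fold under both scales. After centering they stood at -2.96, -1.67 and -1.02. PANK3, a pantothenate kinase gene that hosts miR-103a-1, went from 739 to 229 (-1.69, or -1.39 centered) on 1 probe set and from 72.5 to 58.2 (-0.32, or -0.02 centered) on the other. PANK1, which hosts miR-107, went from 156 to 72.4 (-1.11), and after centering stood at -0.81, short of 2-fold.

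Related host genes were not past 2-fold on the brightest probe set. PANK2, the host of miR-103a-2, had -0.39 there (-0.09 centered), and CTDSP2, the host of miR-26a-2, -0.74 (-0.44 centered). CTDSP1, the host of miR-26b, had -0.18, which turned to 0.12 after centering. DLEU2, the host of miR-15a and miR-16-1, again depended on the probe set, with -0.64 on the brightest and -1.51, -0.78 and -1.80 on the other kept ones. SMC4, a condensin subunit gene that hosts miR-15b and miR-16-2, had -0.27 on its brightest probe set (0.03 centered). The next gave -0.32 (-0.02 centered). Its dimmest kept probe set read 51.3 and 16.9, the second within background, so SMC4 was at least 2.79-fold lower there, or 2.26-fold after centering.

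The mature microRNAs of these hosts are printed to show which genes carry the same guide, from RefSeq on GRCh38.p14 and with the seed in capitals. miR-103a-3p comes from PANK3 (chr5:168560904-168560926, minus strand) and from PANK2 (chr20:3917541-3917563, plus strand). It shares its seed with miR-107 of PANK1 (chr10:89592756-89592778, minus strand). miR-26a-5p comes from CTDSPL (chr3:37969413-37969434, plus strand) and from CTDSP2 (chr12:57824658-57824679, minus strand), and miR-26b-5p of CTDSP1 (chr2:218402657-218402677, plus strand) has the same seed. miR-15a-5p (chr13:50049167-50049188) and miR-16-5p (chr13:50049027-50049048), both on the minus strand in DLEU2, share a seed. SMC4 carries miR-16-5p as well (chr3:160404754-160404775, plus strand), and miR-15b-5p with the same seed (chr3:160404607-160404628, plus strand).
hsa-miR-103a-3p: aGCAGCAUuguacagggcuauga
hsa-miR-107: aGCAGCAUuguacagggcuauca
hsa-miR-26a-5p: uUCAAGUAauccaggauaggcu
hsa-miR-26b-5p: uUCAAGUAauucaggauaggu
hsa-miR-15a-5p: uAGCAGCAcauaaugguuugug
hsa-miR-15b-5p: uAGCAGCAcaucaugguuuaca
hsa-miR-16-5p: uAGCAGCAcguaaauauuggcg
The same mature miR-103a-3p and miR-26a-5p can thus be made from a host that read lower by more than 2-fold and from a host that did not. No level of any mature microRNA follows from these values.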

How the data were processed

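Per the labels and values, the authors deposited linear signal intensity from 2 Affymetrix arrays, 1 per siRNA. The submitters' processing notes name GCOS; how arrays were scaled is not given in the sources used here. Precision is limited by the number of arrays. After 62 control probe sets were set aside, log2 ratios were computed for 54613 probe sets. They were named from the platform annotation through Entrez numbers and RefSeq (GRCh38.p14): 41091 had 1 gene, 1801 several and 11721 were not listed. Probe sets with a mean signal of at least 19.8 were kept, and a gene took its brightest one. Lists were described, not tested. The members and lists were chosen with earlier results of these data known. Named were all members, AGO4, TNRC6C, PRKRA, HOXD9 and GAPDH. In each list the genes past 2-fold were named, or else up to 3 with the largest ratio. Marker genes came from a list. Values of DLEU2, PANK2, CTDSP1, CTDSP2, SMC4, VMP1, RIGI, IFIH1, KHSRP and DIS3L2 were chosen after they were seen. The procedure was tested on simulated data. Alternatives were centering, quantile normalization, loess (fraction 0.3), no filter, a filter at percentile 70, a signal floor at percentile 20, no _x_at or _s_at probe sets, and gene means. Python 3.11.15, numpy 2.4.6, pandas 2.3.3, statsmodels 0.14.6 and matplotlib 3.10.9 were used.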

Additional observations from a re-analysis of the deposited data

How the results depend on the processing

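With 1 array per condition no replicate could be left out. The 4 kept member probe sets lower by more than 2-fold became 2 after quantile normalization, 2 after loess, 1 with the stricter filter and 6 without a filter. The matching shares over all probe sets are not given here, so nothing is read from these changes. The 4 genes with a range over 1 between probe sets became 1 with the stricter filter, under which fewer probe sets remain, and 3 with signals at or under background taken at background. The 4 genes of the related lists lower by more than 2-fold became 2 after centering, quantile normalization and loess, and 8 without a filter, which also gave 3 higher in place of 0. These alternatives for the ranges and lists were chosen after seeing the data. AGO1 went from 0.14 to -0.48 when its probe sets were averaged and to -0.49 without _x_at and _s_at probe sets. AGO1, AGO3 and DICER1 changed sign under 2, 3 and 3 of 8 alternatives, and no member gene passed 2-fold under any alternative run.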

Other observations

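The probe sets that the annotation gives to 2 genes belong in no comparison above and are not assigned to either gene. Of the 4 annotated to both DGCR8 and MIR1306, 64474_g_at read 189 in the control and 130 after HOXD9 siRNA-2 (log2 ratio -0.54), 218650_at read 110 and 102 (-0.10) and 91617_at read 106 and 76.3 (-0.47). After centering these stood at -0.24, 0.20 and -0.17. The dimmest, 219811_at, read 44.1 and 5.39. The second signal lay within background, so it was at least 2.40-fold lower, or 1.95-fold after centering.

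Of the 3 annotated to both AGO2 and CASC7, 225569_at read 191 and 213 (0.16) and 213310_at read 77.7 and 116 (0.57), or 0.46 and 0.87 after centering. The dimmest, 1561042_at, was at least 1.61-fold lower, or 1.31-fold after centering, from signals of 29.6 and 14.8.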
